A study of Mus musculus with 8 samples.

Results

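The genes described here are 9 genes of major histocompatibility complex (MHC) class II antigen presentation and dendritic cells, chosen by name: H2-Aa, H2-Ab1, H2-Eb1, H2-DMa, Cd74, Ciita, Cd80, Cd86 and Flt3. All 9 were found among 19938 genes with a probe set of a single symbol, and 8 of the 9 passed the filter on low values; Cd86 did not. Each gene was represented by its probe set with the highest mean over the arrays, which left a choice only for Cd80. They were measured on gene expression arrays in uteri of young virgin C57BL/6 mice, collected on day 3 at 22 h, with the night of mating as day 0. The 4 pregnant samples came from females mated with stud males, showed no blue dye reaction and yielded healthy-looking blastocysts. The 4 pseudopregnant samples came from females mated with vasectomized males at the same day and hour. The male differed with the group, so mating with a fertile male and the presence of embryos cannot be told apart. The labels call the samples biological replicates without giving the number of animals in each, and they were chosen among others for RNA quality.

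MHC class II molecules are pairs of an alpha and a beta chain that hold peptides from proteins taken up by the cell and show them to CD4+ T cells. Dendritic cells, macrophages and B cells carry them, and dendritic cells and macrophages are resident in the mouse uterus around implantation. The invariant chain Cd74 guides new class II pairs to the endosome, H2-DM exchanges its remnant for a peptide, and Ciita is the coactivator that switches on the class II genes. Cd80 and Cd86 give the T cell its second signal, and Flt3 is the receptor through which dendritic cell precursors are told to grow.

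The proximal promoters of class II genes carry an X box and a Y box, the elements on which Ciita is recruited. The windows of the 2 classical chain genes that were matched are shown, since these boxes are the known shared control elements of class II genes. RefSeq promoter windows on GRCm38.p6, from 250 bases before to 50 after the start, were matched for 5 of the 9 genes, with 6 windows. The windows of the I-A alpha chain gene H2-Aa, at chr17:34287774-34288073 on the minus strand, and of the I-E beta chain gene H2-Eb1, at chr17:34305617-34305916 on the plus strand, are printed 5′ to 3′ in the direction of transcription. Capitals mark matches on either strand to CCAAT (the Y box core), ACNGATG (part of the X1 box) and ACGTCA (the X2 box core, added after the windows were read).
H2-Aa: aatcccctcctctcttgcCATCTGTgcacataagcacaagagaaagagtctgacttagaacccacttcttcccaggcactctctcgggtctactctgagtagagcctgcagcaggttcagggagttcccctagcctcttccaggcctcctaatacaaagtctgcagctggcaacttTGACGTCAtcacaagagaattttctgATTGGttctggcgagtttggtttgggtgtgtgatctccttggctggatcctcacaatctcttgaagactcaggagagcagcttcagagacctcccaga
H2-Eb1: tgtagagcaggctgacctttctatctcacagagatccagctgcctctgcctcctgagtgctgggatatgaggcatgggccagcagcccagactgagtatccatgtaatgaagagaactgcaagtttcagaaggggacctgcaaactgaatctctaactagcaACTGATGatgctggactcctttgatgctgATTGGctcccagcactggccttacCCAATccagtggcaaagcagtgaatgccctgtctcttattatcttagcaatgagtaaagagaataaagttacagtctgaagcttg
In H2-Aa, overlapping X2 core matches on both strands lay between bases -74 and -67 and a Y core match between -48 and -44, with 18 bases between them. In H2-Eb1, an X1 match lay between -88 and -82 and a Y core match between -59 and -55, with 22 bases between them. The H2-Aa window also held an X1 match far upstream, from -232 to -226, and H2-Eb1 a further Y core match from -35 to -31. These motifs are short: of 32851 windows of the same length, 37.4% held the Y core, 9.85% the X1 part and 7.51% the X2 core. Y core and X1 part stood together in 3.65% of windows and Y core and X2 core in 2.79%. Of the other windows, the second start of H2-DMa held a Y core match from -198 to -194, and the first start of H2-DMa, Cd80 and Flt3 held none of the 3 motifs.

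**Figure D1:**
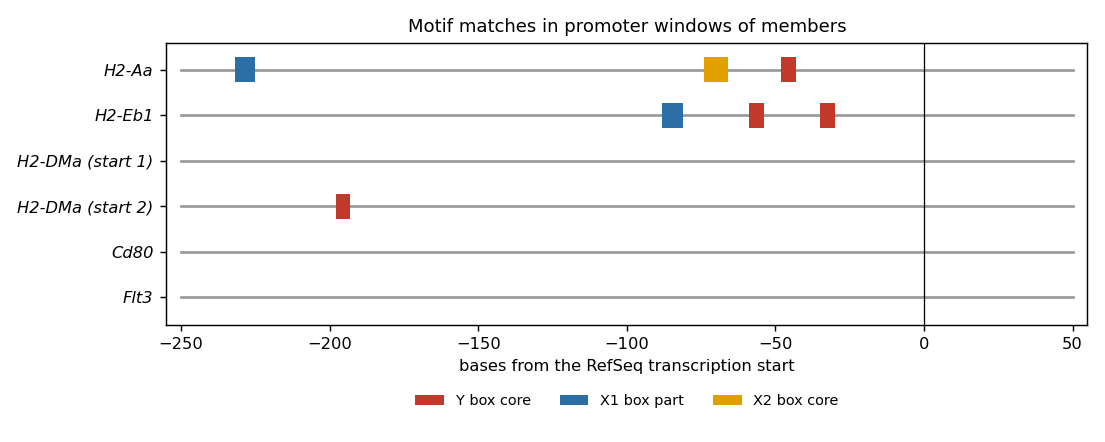
Positions of motif matches (coloured blocks) in the 300-base promoter windows of 5 genes, in bases from the RefSeq transcription start on the x axis. H2-Aa and H2-Eb1 carry a Y box core match within 60 bases of the start with an X box match upstream of it; both windows of H2-DMa, Cd80 and Flt3 lack that pairing.

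The question is how pregnant and pseudopregnant uteri differ just before attachment. The 2 chains of the class II molecule I-A and the invariant chain were higher in the pregnant uterus: H2-Ab1 by 1.496-fold, H2-Aa by 1.33-fold and Cd74 by 1.28-fold. The other 5 measured genes did not pass the test, and none was called lower. The count of 3 higher among 8 stands beside 247 of 17494 probe sets (1.41%) called higher over the whole array, in limma with Benjamini-Hochberg adjustment at 0.05. Lower calls made up 0.412% of probe sets and calls in either direction 1.82%. In the same fit 5 of the 8 were higher at an unadjusted p under 0.05, against 14.3% of all probe sets, and 0 were lower at that level, against 9.43%. The log2 difference was above 0 for 7 of the 8, against 50.6% of probe sets, with a median of 0.20 among the 8 and 0.0019 over the array. The groups did not overlap, with the pregnant group higher, for 4 of the 8 (H2-Aa, H2-Ab1, Cd74 and Ciita), against 9.23% of probe sets. These are bulk tissue values, in which more cells of a type and more RNA per cell cannot be told apart. The 3 calls lay close to the threshold. Leaving out any of 7 of the 8 arrays brought the count to 0; without pseudopregnant replicate 4 it was 1, H2-Ab1. With no filter on low values it was 0, with adjusted p of 0.069, 0.082 and 0.087 for H2-Ab1, Cd74 and H2-Aa.

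H2-Ab1 encodes the beta chain of I-A, the only class II molecule on the surface of C57BL/6 cells. Its log2 intensity was 9.47, 9.55, 9.53 and 9.32 in pregnant replicates 1 to 4 and 8.69, 8.66, 9.15 and 9.05 in pseudopregnant replicates 1 to 4. All pregnant arrays lay above all pseudopregnant ones, and the pseudopregnant arrays fell into a lower and a higher pair. The log2 difference was 0.58 ± 0.11 (SE), from 9.47 ± 0.10 against 8.89 ± 0.25 (SD, n = 4 each), with a limma adjusted p of 0.038. Without single arrays it lay between 0.50 and 0.67, with adjusted p between 0.043 and 0.10.

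H2-Aa encodes the alpha chain that pairs with it. Its log2 intensity was 8.66, 8.98, 8.84 and 8.75 in the pregnant replicates and 8.52, 8.19, 8.38 and 8.47 in the pseudopregnant ones. Pregnant replicate 2 was the highest array and pseudopregnant replicate 2 the lowest, and the groups did not overlap. The log2 difference was 0.42 ± 0.089 (SE), the means being 8.81 ± 0.14 and 8.39 ± 0.15 (SD, n = 4 each), at an adjusted p of 0.049 in limma. Without single arrays the adjusted p rose to between 0.059 and 0.097, with differences of 0.35 to 0.47. With the probe sets of each gene averaged, its adjusted p was 0.052.

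Cd74 encodes the invariant chain, which keeps peptides out of class II pairs until they reach the endosome. Its log2 intensity was 8.92, 9.10, 9.08 and 8.91 in the pregnant replicates and 8.59, 8.53, 8.74 and 8.74 in the pseudopregnant ones. As for H2-Ab1, pseudopregnant replicates 1 and 2 were the lowest arrays. The log2 difference was 0.35 ± 0.072 (SE), the means being 9.001 ± 0.10 and 8.65 ± 0.11 (SD, n = 4 each), at an adjusted p of 0.044 in limma. It was 0.31 to 0.38 without single arrays, with adjusted p of 0.054 to 0.11. With cyclic loess between arrays, the calls of Cd74 (adjusted p = 0.056) and H2-Aa (0.066) ended and that of H2-Ab1 held, as they did with quantile normalization repeated (0.056 and 0.064).

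**Figure D2:**
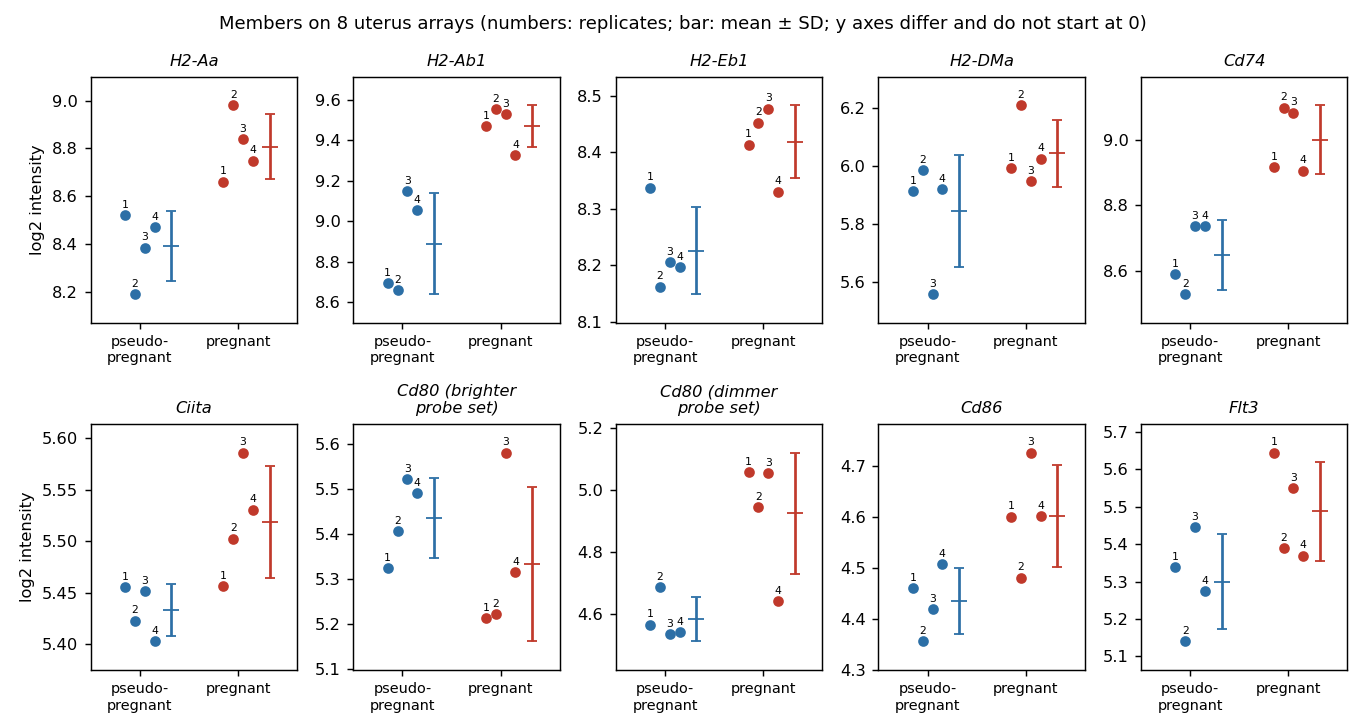
Log2 intensity of the 9 genes on each of 8 arrays (points, numbered by replicate), with the mean ± SD of each group of 4; Cd80 has a panel for each of its probe sets, and the y axes differ and do not start at 0. H2-Aa, H2-Ab1 and Cd74 show no overlap between pregnant (red) and pseudopregnant (blue) arrays, whereas H2-DMa, Flt3, Cd86 and both probe sets of Cd80 do overlap.

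H2-Eb1 encodes the beta chain of the other class II molecule, I-E. C57BL/6 mice carry a haplotype in which H2-Ea, the gene of its alpha partner, is not transcribed. The H2-Ea probe set lay between 4.07 and 4.21 on all arrays, under the 40th percentile of each array (5.23 to 5.32). H2-Eb1 was well above that line, with log2 intensities of 8.41, 8.45, 8.48 and 8.33 in the pregnant replicates and 8.34, 8.16, 8.21 and 8.20 in the pseudopregnant ones. Pseudopregnant replicate 1 lay just above pregnant replicate 4, so the groups overlapped. Its log2 difference was 0.19 ± 0.058 (SE) and did not pass (adjusted p = 0.096).

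The difference of H2-Eb1 was the smallest among the 4 bright genes, so the 6 pairs among H2-Aa, H2-Ab1, H2-Eb1 and Cd74 were compared within arrays, a test chosen after the values were seen. The log2 value of H2-Eb1 minus that of H2-Ab1 was -1.05, -1.10, -1.05 and -0.99 in the pregnant replicates and -0.35, -0.49, -0.94 and -0.86 in the pseudopregnant ones, with no overlap. It differed between the groups by -0.39 (exact two-sided permutation p = 0.029, the smallest that 4 against 4 arrays can give). Adjusted over the 6 pairs it did not pass (0.087). Cd74 against H2-Ab1 gave the same values, 0.029 and 0.087, at -0.23. The remaining 4 pairs had exact permutation p between 0.057 and 0.34, and H2-Ab1 and H2-Aa, which form a dimer, differed in their change by 0.16 (exact permutation p = 0.29).

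H2-DMa encodes a chain of the peptide exchanger H2-DM. Its log2 intensity was 5.99, 6.21, 5.95 and 6.03 in the pregnant replicates and 5.91, 5.99, 5.56 and 5.92 in the pseudopregnant ones. Pseudopregnant replicate 3 stood apart from its group, and the groups overlapped. The log2 difference of 0.20 ± 0.097 (SE) did not pass (adjusted p = 0.24), and without that array it was 0.10. The probe set of the beta chain genes H2-DMb1 and H2-DMb2 carries both symbols and was not assigned to either.

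Ciita, the coactivator, was dim and did not pass. Its log2 intensity was 5.456, 5.50, 5.59 and 5.53 in the pregnant replicates and 5.455, 5.42, 5.45 and 5.40 in the pseudopregnant ones. The groups were separated by a gap of about a thousandth of a log2 unit between pregnant replicate 1 and pseudopregnant replicate 1. The log2 difference was 0.09 ± 0.049 (SE, adjusted p = 0.31), with a 95% interval from -0.024 to 0.20. Its probe set lay little above the 40th percentile of the arrays.

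The costimulatory ligands lay near or below the filter. Cd86, the ligand carried by resting dendritic cells and macrophages, lay below the 40th percentile on all 8 arrays, with 4.60, 4.48, 4.73 and 4.60 in the pregnant and 4.46, 4.36, 4.42 and 4.51 in the pseudopregnant replicates. The groups overlapped, and without the filter its log2 difference was 0.17 (limma adjusted p = 0.24). Cd80, the ligand that appears on activated cells, had 2 probe sets that went opposite ways. The brighter one, annotated to cDNA clones, gave 5.21, 5.22, 5.58 and 5.32 in the pregnant against 5.32, 5.41, 5.52 and 5.49 in the pseudopregnant replicates, a log2 difference of -0.10 ± 0.087 (SE, adjusted p = 0.49). The dimmer one, annotated to the RefSeq transcript, gave 5.06, 4.95, 5.05 and 4.64 against 4.57, 4.69, 4.54 and 4.54. It was 0.34 higher in the pregnant group, lay below the 40th percentile throughout and had an adjusted p of 0.12 without the filter. The direction of Cd80 therefore depends on the probe set.

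Flt3, the growth factor receptor of dendritic cell precursors, gave 5.64, 5.39, 5.55 and 5.37 in the pregnant and 5.34, 5.14, 5.45 and 5.27 in the pseudopregnant replicates. Pseudopregnant replicate 3 exceeded pregnant replicates 2 and 4. The log2 difference was 0.19 ± 0.083 (SE, adjusted p = 0.21), with 2 of the 4 pseudopregnant arrays above the 40th percentile and all pregnant ones. Its ligand Flt3l was measured at 6.61 ± 0.048 against 6.52 ± 0.039 (SD, n = 4 each), a log2 difference of 0.09 that did not pass (adjusted p = 0.27).

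**Figure D3:**
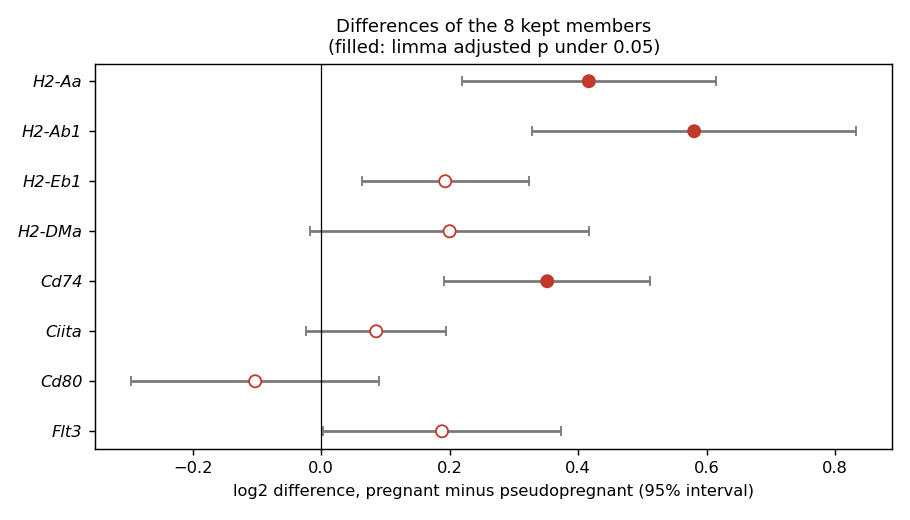
Log2 difference, pregnant minus pseudopregnant, of the 8 genes that passed the filter (points) with limma's 95% interval (bars); filled points have an adjusted p under 0.05. H2-Aa, H2-Ab1 and Cd74 are filled, at 0.35 to 0.58, and the intervals of H2-DMa, Ciita and Cd80 include 0.

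Other genes of the pathway were followed in 4 lists of 85 genes, 57 of them kept. Among 16 kept further genes of class II presentation, 0 passed in either direction (limma; without adjustment, 4 higher and 0 lower at a p under 0.05, beside 14.3% and 9.43% of all probe sets), and the median difference was 0.06. The 4 were the endosomal proteases Ctss, which trims the invariant chain (0.33 ± 0.11 SE, adjusted p = 0.13), and Ctsl (0.23 ± 0.086, 0.15), the NF-Y subunit Nfya (0.15 ± 0.056, 0.15) and H2-Ob, a chain of the H2-DM inhibitor H2-O (0.25 ± 0.094, 0.16). Ctss gave 7.44, 7.58, 7.70 and 7.55 in the pregnant and 7.09, 6.97, 7.40 and 7.49 in the pseudopregnant replicates, which overlapped. Rfx5, which binds the X box, differed by 0.02 ± 0.061 (SE, adjusted p = 0.83). The other chain of H2-O, H2-Oa, lay below the filter, as did H2-Eb2, H2-Ea and Marchf1.

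Of 14 costimulatory ligands and receptors, 4 were kept and 0 passed in limma, beside 1.82% of all probe sets. At an unadjusted p under 0.05 the count was 0 as well, beside 14.3% higher and 9.43% lower over the array. With 4 genes, a count of 0 lies near these shares. The 4 kept were Icosl, the ligand of the T cell receptor ICOS (0.12, adjusted p = 0.34), Cd276 (0.06, 0.64), Cd40, through which T cells activate dendritic cells (-0.05, 0.63), and Cd83. The T cell side, Cd28, Ctla4, Icos and Cd40lg, lay below the filter.

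Of 23 kept dendritic cell genes, Itgax and Clec9a were called higher and 0 lower, beside 1.41% and 0.412% of all probe sets. The median difference was 0.05. Without adjustment, 7 were higher and 1 was lower at a p under 0.05 in limma, beside 14.3% and 9.43% of all probe sets. Clec9a, a receptor for dead cells on cross-presenting dendritic cells, gave 5.47, 5.69, 5.75 and 5.54 in the pregnant and 4.73, 4.42, 4.97 and 5.09 in the pseudopregnant replicates. Its log2 difference was 0.81 ± 0.13 (SE, adjusted p = 0.025 in limma); all its pseudopregnant values lay below the 40th percentile, so it passed the filter through the pregnant group alone, its call is no independent support and the size is not exact. Itgax, the integrin CD11c of dendritic cells and many macrophages, rose by 0.57 ± 0.11 (adjusted p = 0.035), from 5.34 to 5.85 in the pseudopregnant to 6.01 to 6.25 in the pregnant arrays. Irf8, needed for cross-presenting dendritic cells, missed the threshold (0.31 ± 0.068, adjusted p = 0.052). Batf3, a factor that the same dendritic cells need, had a difference in the opposite direction, -0.17 ± 0.052 (SE), with no overlap of the groups, and did not pass (adjusted p = 0.099). Among the rest of the list, Zbtb46 differed by -0.07 ± 0.063 (adjusted p = 0.55), and Xcr1, Irf4, Clec10a and Cd207 lay below the filter. Without single arrays Clec9a passed in 4 of 8 fits (adjusted p 0.022 to 0.074) and Itgax in 1, without pseudopregnant replicate 4 (0.020 to 0.085 over the 8). The count of the list was 0 to 2 in those fits.

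Interferon gamma is the classic inducer of Ciita and class II genes. Its gene Ifng lay below the filter, with 4.39 to 4.73 in the pregnant and 4.18 to 4.74 in the pseudopregnant arrays. Of 14 kept genes of its receptor, signalling and response, 2 rose and 1 (Gbp5) was called lower, beside 1.41% and 0.412% of all probe sets, and the median difference was -0.09. The receptor chain Ifngr1 (0.27 ± 0.054 SE, limma adjusted p = 0.042) and the kinase Jak1 (0.29 ± 0.056, 0.037) rose. The other receptor chain Ifngr2 (-0.08, adjusted p = 0.48) and the other kinase Jak2 (-0.18, 0.30) had differences below 0 and did not pass. The response gene Gbp5, a guanylate-binding protein, was lower by a log2 difference of -0.42 ± 0.078 (SE, adjusted p = 0.034). It gave 4.996, 5.17, 5.28 and 5.22 in the pregnant and 5.71, 5.44, 5.63 and 5.58 in the pseudopregnant replicates, with no overlap. It was above the 40th percentile on all 4 pseudopregnant but 1 pregnant array, so it passed the filter through the group where it is high, its call is no independent support and the size is not exact. Further known targets had differences below 0 without passing, among them the chemokine Cxcl10 (-0.41, adjusted p = 0.066) and the factor Irf1 (-0.19, 0.13). The target Cxcl9 went the other way and did not pass (0.09, adjusted p = 0.66). Of the 14 kept genes 3 had differences above 0. Without adjustment, 2 were higher and 3 lower at a p under 0.05 in limma, beside 14.3% and 9.43% of all probe sets. Without single arrays Ifngr1 passed in 0 of 8 fits, Jak1 in 1, without pseudopregnant replicate 4, and Gbp5 in 2, without pregnant replicate 3 or pseudopregnant replicate 2; the count of the list was 0 or 1.

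**Figure D4:**
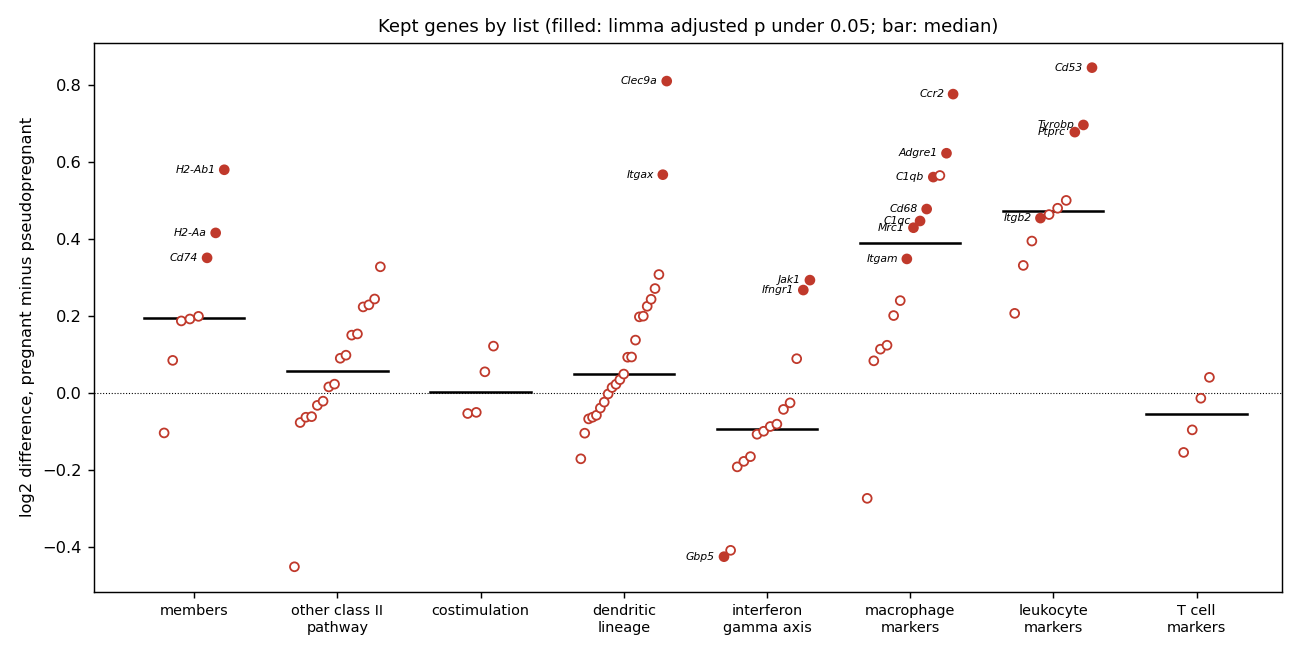
Log2 difference, pregnant minus pseudopregnant, of every kept gene (points) in 8 lists on the x axis, filled where the limma adjusted p was under 0.05, with the median of each list as a bar. The medians are 0.20 for the 9-gene set, 0.06 for other class II genes, 0.05 for dendritic cell genes, -0.09 for the interferon gamma axis, 0.39 for macrophage markers and 0.47 for leukocyte markers.

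Class II molecules are carried by several kinds of leukocyte, so markers of these were read on the same arrays. Of 12 genes common to leukocytes, 10 were kept, all 10 had differences above 0, 4 rose (Ptprc, Cd53, Itgb2 and Tyrobp) and the median was 0.47. Over the array 50.6% of probe sets had differences above 0 and 1.41% were called higher. Their mean level was 7.32 to 7.67 on the pregnant and 6.85 to 7.16 on the pseudopregnant arrays. Of 14 kept macrophage markers 7 rose, with mean levels of 7.07 to 7.29 against 6.79 to 6.92. The 7 had log2 differences between 0.35 (Itgam) and 0.78 (Ccr2), and those with the smallest p were C1qb (0.56), Itgam and Adgre1 (0.62). Cd14 was the 1 of the 14 with a difference below 0 (-0.27, adjusted p = 0.24). Without single arrays the leukocyte count was 1 to 5 and the macrophage count 1 to 4. The B cell markers Ms4a1, Cd79a, Cd79b and Pax5 lay below the filter with 7 others of the 12 on the array, and Ighm, the 1 kept, differed by -0.08. Of 11 T cell markers 4 were kept, with mean levels of 5.37 to 5.55 against 5.50 to 5.62. In limma 0 of the 4 passed, beside 1.82% of all probe sets. At an unadjusted p under 0.05 the count was 0, beside 14.3% higher and 9.43% lower over the array, and 0 of 4 lies near these shares. The part of leukocyte content in the differences of the class II genes was not tested.

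As a description, the mean of the 10 leukocyte markers was subtracted from each gene on each array. H2-Ab1 then lay at 1.99 ± 0.11 in the pregnant and 1.92 ± 0.18 in the pseudopregnant group, a difference of 0.07, and H2-Aa at 1.33 ± 0.054 against 1.42 ± 0.17, a difference of -0.09 (SD, n = 4 each). The groups overlapped for both genes. Cd74 lay at 1.53 ± 0.070 against 1.68 ± 0.086, a difference of -0.15, with pregnant replicate 1 above pseudopregnant replicate 4. The other 6 genes had differences between -0.61 (Cd80) and -0.31 (H2-DMa) on this scale. Ciita, Cd80, Cd86 and Flt3 lie near background, so their differences here cannot be read apart from that of the subtracted markers. The value of Cd80 is that of its brighter probe set, and before subtraction its other probe set went the opposite way.

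**Figure D5:**
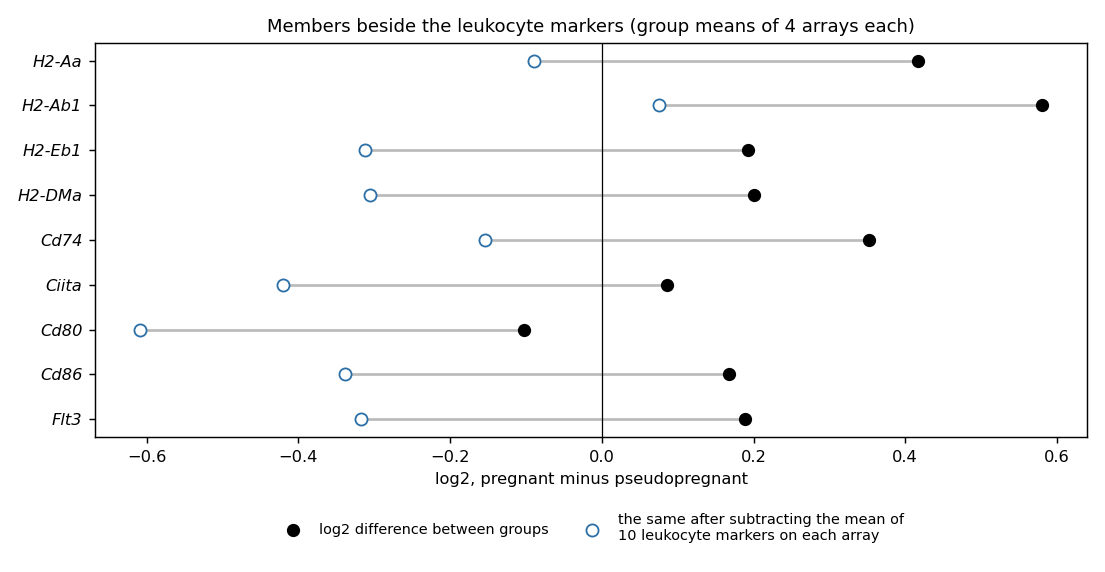
Difference between group means (pregnant minus pseudopregnant, 4 arrays each) on the log2 scale for 9 genes, before (black) and after (open) subtracting the mean of 10 leukocyte markers on each array. After subtraction H2-Ab1 is at 0.07, H2-Aa at -0.09 and Cd74 at -0.15, and the other 6 genes are between -0.61 and -0.31. Ciita, Cd80, Cd86 and Flt3 lie near background, and Cd80 is shown by its brighter probe set.

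Over the arrays within groups, the genes followed a shared profile to different degrees. The mean of H2-Aa, H2-Ab1, H2-Eb1 and Cd74, with each group's mean subtracted, was taken as a profile over the 8 arrays. Cd74 followed it most closely (Pearson r = 0.96), and H2-Ab1 (0.82), H2-Aa (0.81) and H2-Eb1 (0.49) less so, all of them being part of that mean. Flt3 (0.38), Cd80 (0.34), Ciita (0.22) and H2-DMa (-0.25) were less like it. Of 13031 other genes, those most like the profile were Slfnl1, Slc10a6, Psmd10, Bmf and Unc13a, with r between 0.95 and 0.97. None of these 5 passed between the groups, and their differences lay between -0.09 and 0.05. These correlations describe 8 arrays that share 1 tissue and 1 normalization. The highest of 13031 correlations over 8 arrays can be this high by chance, which was not tested.

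The 8 arrays had median intensities of 55.2 to 56.3 and correlated within groups at 0.984 to 0.994, and their number limits the precision. Genes of uterine identity were well measured, with all 10 of the list kept. Their mean was 8.88 to 9.01 on the pregnant and 8.94 to 8.99 on the pseudopregnant arrays. In limma 0 of the 10 passed, beside 1.82% of all probe sets. The differences lay between -0.22 (Myh11, limma adjusted p = 0.070, groups not overlapping) and 0.25 (Des, 0.24). Pregnant replicate 2 (-26.7) and pseudopregnant replicate 1 (20.3) lay farthest out on the first principal component. Of 8 blastocyst markers 6 lay below the filter. The 2 kept were Eomes, also a factor of natural killer cells (0.72, adjusted p = 0.057, above the 40th percentile on the pregnant arrays only), and Gata6 (-0.17, 0.18); their part in the results above was not tested. Of 6 ovary and oviduct markers 5 lay below it, and the kept one, Inha, was at 6.16 to 6.40 on the pregnant and 6.22 to 7.62 on the pseudopregnant arrays; its part in the results above was not tested.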

How the data were processed

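Uterine total RNA of 4 pregnant and 4 pseudopregnant samples was hybridised to arrays. The authors deposited linear intensities per probe set, made with RMA per the submitters' processing notes; its version, software and annotation are not stated there. RMA aligns the distributions of arrays and compresses differences near background.

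Log2 was taken here. Of 35556 probe sets, 6612 with the lowest identifiers, none with a listed gene, were left out as array controls. The filter asked for a value over an array's own 40th percentile on 4 or more of the 8 arrays (17494 kept). Of 28944 probe sets, 21789 carried 1 symbol, 1621 several and 5534 none listed. limma 3.58.1 (R 4.3.3; lmFit, eBayes) tested pregnant against pseudopregnant, two-sided, with Benjamini-Hochberg adjustment over all kept probe sets; the code was tested on simulated data. Figures used matplotlib 3.10.9 (Python 3.11.15). The within-array differences of the 6 gene pairs were tested by exact permutation over 70 arrangements. Genes named were the 9 members, the called or smallest-p genes of each list (3 to 5 per pathway list, up to 3 per marker list), 10 set genes and the 5 most like genes. Cxcl10, Cxcl9, Irf1, Ifngr2, Jak2, H2-Ob, Cd83, Batf3, Tyrobp, Ccr2, Cd14 and genes below the filter were named after their values were seen. The members and lists were chosen with earlier results of these data known. The 19 alternatives covered filter, scaling, pseudocount, probe set choice, weights, variance prior, block and single arrays.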

Additional observations from a re-analysis of the deposited data

Results flagged for a closer look

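The H2-DMa value of pseudopregnant replicate 3, a log2 intensity of 5.56, lay far below the other 3 pseudopregnant arrays, which lay between 5.91 and 5.99. Of 18 groups of 4 arrays examined in this way, 2 for each of the 9 genes, it was the 1 that stood out, and chance gives about 1 in 20. Without that array the log2 difference of H2-DMa between pregnant and pseudopregnant uterus was 0.10 with a limma adjusted p of 0.44.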

How the results depend on the processing

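The 8 kept genes had the reported sign in all 140 of their log2 differences under the alternatives laid out in the methods, whereas the other probe set of Cd80, chosen after seeing the data, reversed it (0.34). Changes of filter, probe set averaging, the intensity trend in the variance and the replicate block left the differences of these genes as they were. That part of the agreement in sign was therefore fixed in advance. The count of these genes called, 3, was 0 with no filter and with the replicate block, and 1 with quantile normalization repeated and with cyclic loess. It was 0 to 1 without single arrays. Over the array, 319 probe sets were called, against 54 with no filter, 174 with the replicate block, 568 with an intensity trend in the variance and 40 to 235 without single arrays. The dendritic cell count, 2, was 0 with no filter, 1 with the filter at the 60th percentile, 1 with the replicate block and 0 to 2 without single arrays. The interferon gamma count, 3, was 0 with no filter, 0 with the replicate block and 0 to 1 without single arrays. The cause was not tested; fits without the filter adjust over more probe sets, and those without an array have fewer samples. The replicate numbers do not show pairing: deviations of same-numbered arrays correlated at 0.25, 0.016, -0.10 and 0.044, and 3 of 8 arrays correlated best with their own number. H2-Ab1 was called under 9 of 18 alternatives, Cd74 under 6 and H2-Aa under 5, with differences of 0.50 to 0.67, 0.31 to 0.38 and 0.35 to 0.47. Signal near background limits Ciita, Cd80, Cd86 and Flt3.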
